A study of Homo sapiens with 12 samples.

Results

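AGS and MKN45, 2 human gastric adenocarcinoma cell lines, were compared in the absence of drug. The comparison used the solvent-control arrays of both lines, 6 of the 12 arrays in the series, with 3 arrays labelled AGS and 3 labelled MKN45, and all genes were tested. The other 6 arrays came from cells given verteporfin (VP), a photosensitiser used in macular degeneration that also blocks binding of the co-activator YAP1 to TEAD factors. Both lines were kept in RPMI1640 medium, and every control array carries the label DMSO, the solvent of the drug, for 36 hours, whereas the methods give another time. Each line is a single established culture, and nothing states that the 3 arrays of a label came from separate cultures, so p-values measure the spread between arrays, which may be technical. On the control arrays 14523 to 15927 probes were detected and median signals were 98.4 to 137, and 3 arrays a line limit the precision. In bulk RNA, fewer cells of a type and less RNA per cell cannot be told apart.

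Gastric cancers keep parts of the programmes of stomach or intestinal epithelium, and lines differ in how much of each they hold. Adhesion in such cells runs through cadherins bound to catenins, claudins at tight junctions, and integrins bound to laminin. Growth signals enter through receptor tyrosine kinases such as MET and the ERBB family, and through Wnt, whose effector β-catenin also sits at cadherin junctions. AGS is known for an activating mutation of β-catenin and for loss of E-cadherin protein, and MKN45 for amplification of MET.

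The labels were checked against these traits before any other gene, and the result depended on which deposited table was read. One table holds probe signals, which were normalized over the 6 control arrays together and are the source of the results unless the other is named. MET, the receptor of hepatocyte growth factor, had signal levels (log2) of 8.66, 8.61 and 8.41 in arrays labelled AGS and 8.73, 8.85 and 8.76 in arrays labelled MKN45. The arrays did not overlap, but the difference was only 0.22 ± 0.11 on the log2 scale (SE, n = 3 per line) and did not pass the test (limma, adjusted p = 0.238). In the value table, which holds log2 levels that the authors normalized for each line apart, MET was 8.97, 8.79 and 8.76 in AGS columns and 12.56, 12.59 and 12.59 in MKN45 columns, a difference of 3.74 ± 0.06. The signals of the arrays labelled MKN45 therefore go against the known MET level of that line, and the value table does not. For this reason each group is called by its label throughout, and the value table, after its row names were put back in step and its 6 columns normalized together, is given beside the signals.

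The same pattern held for other genes that mark the lines. CDH1, which encodes E-cadherin, was 6.94, 6.77 and 6.96 in the signals of arrays labelled AGS and 7.88, 7.38 and 7.90 in those labelled MKN45, a difference of 0.83 ± 0.15 (adjusted p = 0.0036), against 3.82 ± 0.06 in the value table. AXIN2, a target gene of Wnt signalling, was 12.31, 12.08 and 12.12 in arrays labelled AGS and 11.11, 10.81 and 10.88 in arrays labelled MKN45. Its difference was -1.23 ± 0.12 (adjusted p = 7.63e-05), against -3.28 ± 0.06 in the value table. For both genes the groups did not overlap and the direction was shared, but the signals held a much smaller difference. YAP1 did not pass the test in the signals (0.10 ± 0.12, adjusted p = 0.641) and was lower in MKN45 columns of the value table (-2.13 ± 0.07). Over 12871 probes detected on all 12 arrays, signal arrays labelled MKN45 had rank correlations of 0.906 to 0.919 with AGS columns of the value table and of 0.861 to 0.874 with MKN45 columns. Signal arrays labelled AGS had 0.907 to 0.931 with AGS columns and 0.849 to 0.861 with MKN45 columns. Both sets of signals thus ranked closer to AGS columns. These correlations are across probes, which are not replicates, and which table carries the labelled line was not tested.

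**Figure D1:**
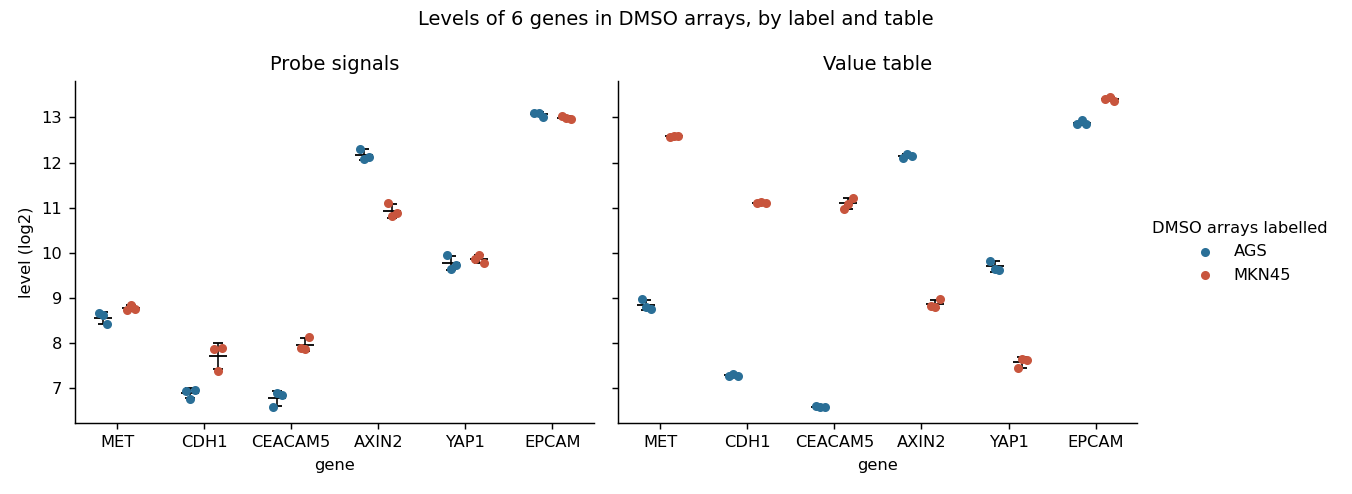
Levels (log2) of 6 genes on each of the 6 DMSO arrays (dots) with the mean and SD of each label (black, n = 3), in the probe signals (left) and the value table (right). MET differed by 0.22 between labels in the signals and by 3.74 in the value table, whereas EPCAM was near 13 in both labels and both tables.

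Both groups were epithelial. All 7 epithelial markers on the list (EPCAM, CDH1, KRT8, KRT18, KRT19, ESRP1 and GRHL2) were detected on all arrays of both labels. The epithelial adhesion molecule EPCAM had signal levels of 13.09, 13.11 and 13.01 in AGS and 13.04, 12.99 and 12.96 in MKN45, which overlapped (difference -0.07 ± 0.10, adjusted p = 0.687). The simple-epithelium keratins KRT8 (-0.05 ± 0.12) and KRT18 (0.04 ± 0.14) and the mesenchymal filament VIM (0.10 ± 0.11) did not pass either. In the value table EPCAM (0.53 ± 0.06), KRT8 (1.06 ± 0.08) and KRT18 (1.89 ± 0.06) were higher in MKN45 columns. KRT19 (-0.14 ± 0.06) and VIM (-0.19 ± 0.07) were lower there. Of the 24 hematopoietic markers listed, 21 were on the array, and PTPRC, CD3E and 11 others were at background on every control array, and summed levels of the list were 9835 to 10919 in AGS and 2463 to 3043 in MKN45. That sum moved with LYZ, the secreted enzyme lysozyme, which stomach epithelium also makes. COL1A1, COL3A1 and DCN of the fibroblast list and PECAM1 and VWF of the endothelial list were at background on every control array of the signals. COL1A1 was detected on all AGS columns of the value table. Other listed markers were detected on all signal arrays labelled AGS. They were CD68, CD79B, CSF1R, HBB and LYZ (hematopoietic), ACTA2, PDGFRA and TAGLN (fibroblast and muscle) and ESAM (endothelial). Of 5 tested hematopoietic markers, 3 were called toward AGS and 0 toward MKN45.

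In the signals, 9075 genes were tested and 15.6% were called at an adjusted p under 0.05 (limma, Benjamini-Hochberg adjustment over all genes). There were 603 genes higher in arrays labelled MKN45 (6.64% of those tested) and 811 higher in arrays labelled AGS (8.94%). When each array was shifted to a common median in place of quantile normalization, the median of all genes moved to 0.16 and the split became 484 against 220. At least 2-fold differences were called for 95 genes toward MKN45 (1.05%) and for 108 toward AGS (1.19%), 2.24% of genes in all. The arrays of the labels did not overlap for 33.6% of genes (75.9% in the value table). In the value table, 74.7% of 10491 genes were called, 3652 toward MKN45 (34.8%) and 4188 toward AGS (39.9%), with 4.95% and 3.6% at least 2-fold. Of 86 genes called 2-fold toward MKN45 in the signals and tested in both tables, 21 (24.4%) were called 2-fold the same way in the value table, where they made up 6.19% of 339, and 6 were called 2-fold the opposite way. Toward AGS the shared count was 23 of 98 (23.5%) and 6.17% of 373, with 9 opposite.

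**Figure D2:**
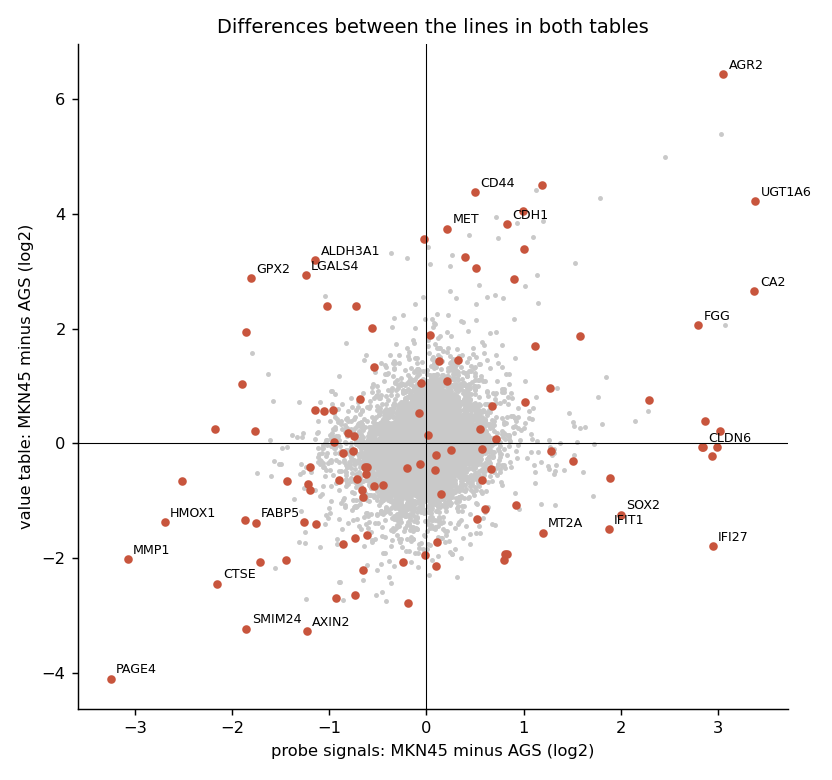
Difference between the labels (MKN45 minus AGS, log2) in the probe signals (x axis) and in the value table (y axis) for the 8934 genes tested in both, with genes named in the text in red. AGR2, UGT1A6, PAGE4 and AXIN2 lay on one side in both tables, whereas IFI27, SOX2, GPX2 and ALDH3A1 changed sides.

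The 12 genes with the largest differences toward MKN45 had varied roles. A gene with all arrays of a label at background was ranked by its bound, not by its measured difference. UGT1A6, which conjugates phenols to glucuronic acid, had signal levels of 6.41, 6.39 and 6.34 in AGS and 9.75, 9.85 and 9.70 in MKN45, a difference of 3.39 ± 0.11 (10.5-fold, adjusted p = 3.6e-08). It was at least 4.11 higher in MKN45 columns of the value table, where AGS columns were not above background. UGT1A6 shares exons with the other UGT1A genes, and UGT1A1 went the other way in the signals (at least 0.87 lower in MKN45, adjusted p = 0.00219) but at least 2.12 higher in MKN45 in the value table. AGR2, an endoplasmic reticulum protein needed for mucin folding, was 7.22, 6.85 and 6.50 in AGS and 9.71, 10.22 and 9.80 in MKN45 (3.06 ± 0.19, adjusted p = 2.13e-06). In the value table AGR2 differed by 6.43 ± 0.07, the largest difference of all genes named here. The carbonic anhydrase CA2 was 5.86, 5.53 and 5.46 in AGS, where 1 of 3 arrays was above background, and 8.94, 9.24 and 8.81 in MKN45 (3.38 ± 0.15, value table, 2.65 ± 0.06). Leading genes were picked for signal arrays that do not overlap between labels, as for 33.6% of all genes, so that separation is no finding. In the value table the columns of these 3 genes did not overlap either, as for 75.9% of genes there.

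FGG, a chain of fibrinogen, was 7.40, 7.31 and 7.37 in AGS and 10.14, 10.15 and 10.20 in MKN45 (2.80 ± 0.10, adjusted p = 4.5e-08, value table, 2.06 ± 0.07). The secreted lectin REG1A had a difference of 2.29 ± 0.12 (value table, 0.76 ± 0.06). The claudin CLDN6, known from embryonic epithelia, was 6.66, 6.60 and 6.13 in AGS and 9.10, 9.31 and 9.53 in MKN45 (2.85 ± 0.16), whereas the value table gave -0.06 ± 0.06, which did not pass. Arrays labelled AGS were below background for TNFSF9, the ligand of the T cell receptor 4-1BB, for DTNA, a dystrophin-associated protein, and for PLAAT4, a phospholipid acyltransferase. These genes were at least 2.22, 2.12 and 2.30 higher in MKN45, a bound that sets the MKN45 mean against the lowest level measured above background. The value table gave at least 0.18 for TNFSF9, at least 0.10 for DTNA and -0.06 for PLAAT4, which did not pass.

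Toward AGS, the leading gene was PAGE4, a cancer-testis family member, with 8.98, 9.33 and 9.27 in AGS and 5.56, 6.17 and 6.09 in MKN45, where 2 of 3 arrays were above background. Its difference was -3.26 ± 0.17 (adjusted p = 5.31e-07; value table, -4.10 ± 0.07). The collagenase MMP1 was 9.97, 9.86 and 9.86 in AGS and 6.74, 7.06 and 6.66 in MKN45 (-3.08 ± 0.13, adjusted p = 1.07e-07), and at least 1.89 lower in MKN45 columns of the value table. The heme-degrading enzyme HMOX1 was 11.52, 11.71 and 11.55 in AGS and 8.87, 9.06 and 8.77 in MKN45 (-2.70 ± 0.12, value table, -1.38 ± 0.09). That groups did not overlap for any of these in the signals follows from the same choice. Lysozyme (LYZ, -2.52 ± 0.12) and UNC13D, a factor of granule release (-1.87 ± 0.11), were also higher in AGS in both tables (-0.65 ± 0.06 and -1.33 ± 0.06 in the value table), as was the small membrane protein SMIM24 (-1.86 ± 0.11 and -3.23 ± 0.06).

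Among the other leading genes toward AGS, 5 changed side between the tables, of which ITGB4 is described with the integrins, and CTSE, described with the stomach markers, did not. The glutathione peroxidase of gut epithelium, GPX2, was 12.06, 12.09 and 12.07 in AGS and 10.19, 10.23 and 10.37 in MKN45 (-1.81 ± 0.11) but 2.88 ± 0.06 higher in MKN45 columns of the value table. The aldo-keto reductases AKR1B10 (-1.86 ± 0.11) and AKR1C2 (-2.18 ± 0.18) were 1.94 ± 0.06 and at least 0.10 higher in MKN45 columns. AKR1C2 has close paralogs that a probe may not separate. The transporter SLC16A5, of the monocarboxylate family, had -1.77 ± 0.11 in the signals but 0.21 ± 0.06 in value-table columns. Of the 24 leading genes of the signals, 7 of 12 toward MKN45 and 7 of 12 toward AGS were called the same way in the value table, 2 and 5 were called the opposite way, and 3 toward MKN45 did not pass there.

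**Figure D3:**
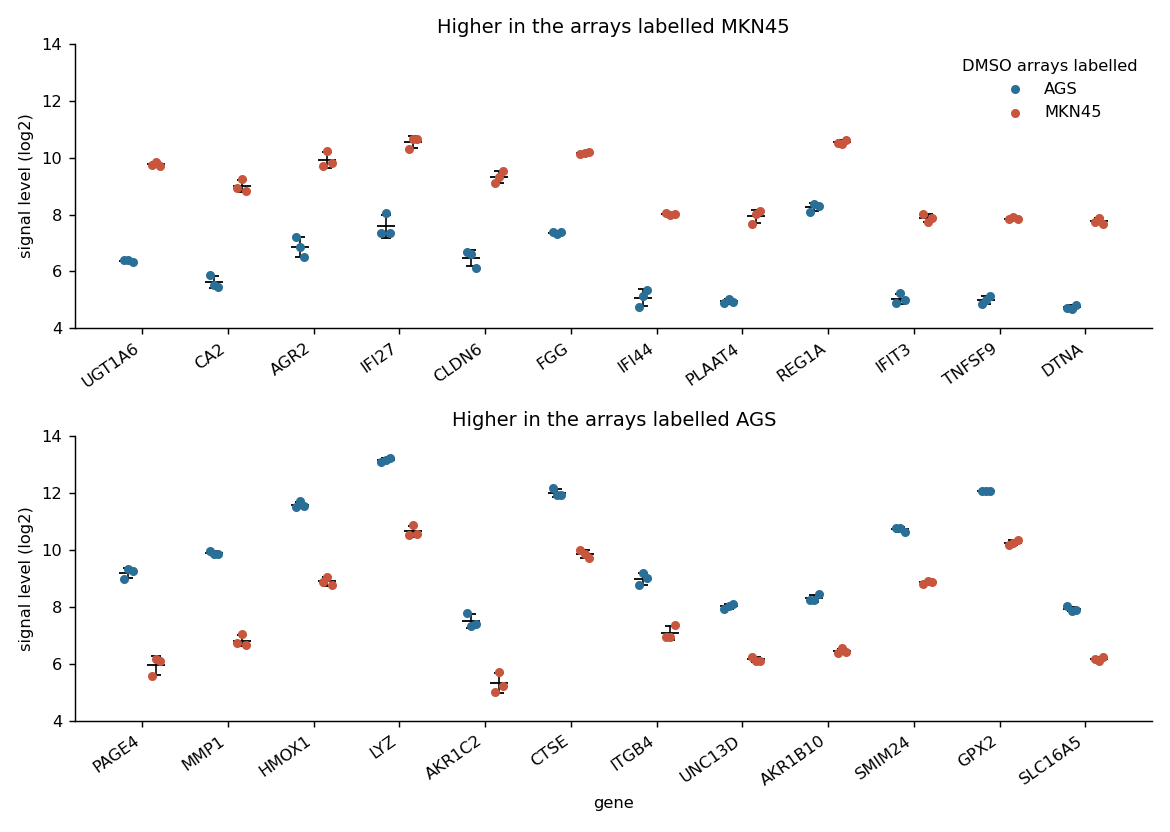
Signal levels (log2) of the 12 leading genes toward MKN45 (top) and the 12 toward AGS (bottom) on each DMSO array, with the mean and SD of each label in black (n = 3). Genes were chosen for not overlapping between labels, and the gap is widest for UGT1A6 (3.39) and PAGE4 (-3.26).

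The VP arrays hold the same contrast of lines in 6 other arrays, normalized on their own, where 42.3% of genes were called, 22.6% toward MKN45 and 19.8% toward AGS. Of 203 genes called 2-fold in the DMSO arrays, 159 were called the same way in the VP arrays and 6 the opposite way. In the value table all 897 genes called 2-fold under DMSO were called the same way in its VP columns, where 71.4% were called. In the VP arrays of the signals, UGT1A6 differed by 4.88 and AGR2 by 1.77 between the lines, PAGE4 by -2.30 and MMP1 by -2.19. Among leading genes, 11 of 12 toward MKN45 and 12 of 12 toward AGS were called the same way, and the exception was IFI27 (-0.15, adjusted p = 0.26). FGG differed by only 0.33 in the VP arrays. These arrays were compared under drug, and they carry the same labels, so they do not check the labels.

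The lists by lineage, adhesion, receptor and metabolic role held different shares of calls. Over all tested genes the median size of the difference was 0.18, which is the value to set beside each list. The shares to set beside each count of calls are 6.64% toward MKN45 and 8.94% toward AGS in the signals. In the value table they are 34.8% and 39.9%.

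**Figure D4:**
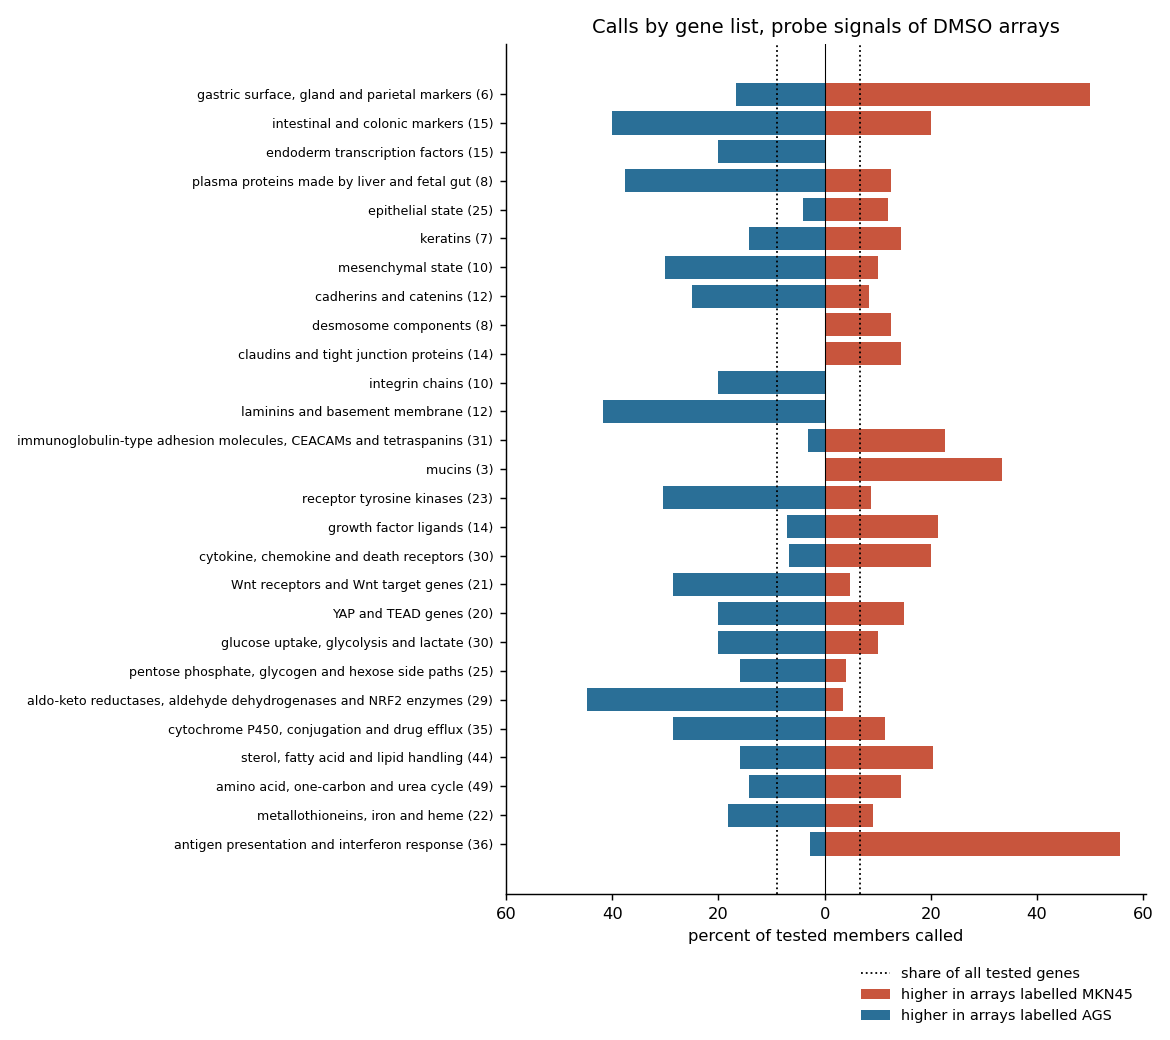
Percent of tested members of 27 gene lists (number tested in brackets) called higher in arrays labelled MKN45 (red, right) or AGS (blue, left), with the share of all tested genes as dotted lines (6.64% and 8.94%). Antigen presentation and interferon genes reached furthest to the right (20 of 36) and aldo-keto reductase, aldehyde dehydrogenase and NRF2 genes furthest to the left (13 of 29).

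Lineage genes split both ways. Of 29 markers of gastric surface, gland and parietal cells, 6 passed the filter, with 3 called toward MKN45 and 1 toward AGS (value table, 9 and 2 of 11). AGR2 led the first set, and the sodium channel subunit SCNN1A, at 6.77, 6.73 and 6.87 in AGS and 7.73, 7.65 and 7.69 in MKN45, was also higher in MKN45 (0.90 ± 0.11, value table, 2.86 ± 0.06). SOX2, a transcription factor of foregut and stomach, was 6.35, 6.47 and 6.59 in AGS and 8.47, 8.76 and 8.18 in MKN45 (2.0 ± 0.15, adjusted p = 1.02e-05), but lower in MKN45 columns of the value table (-1.24 ± 0.07). The aspartic protease cathepsin E (CTSE), made by surface cells of the stomach, was 12.17, 11.93 and 11.94 in AGS and 9.996, 9.87 and 9.71 in MKN45. Its difference was -2.16 ± 0.12 (adjusted p = 1.26e-06), and -2.44 ± 0.07 in the value table, where another probe stood for it.

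Of 43 intestinal and colonic markers, 15 passed the filter, with 3 called toward MKN45 and 6 toward AGS, whereas the value table had 13 toward MKN45 and 3 toward AGS of 17. Liver-intestine cadherin (CDH17) was 11.27, 11.02 and 11.25 in AGS and 10.57, 10.43 and 10.60 in MKN45 (-0.65 ± 0.12, adjusted p = 0.00341, value table, -2.21 ± 0.07). CDX2, the intestinal homeobox factor, overlapped between labels in the signals (-0.24 ± 0.13, adjusted p = 0.257) and was -2.06 ± 0.06 in the value table. The galectin LGALS4 was 9.40, 9.57 and 9.61 in AGS and 8.23, 8.16 and 8.46 in MKN45 (-1.25 ± 0.12), and reversed in the value table (2.93 ± 0.07). The microvillus protein VIL1 (-0.95 ± 0.15) and the membrane protein TM4SF5 (-0.81 ± 0.15) were also higher in AGS, with 0.02 ± 0.06 (not passed) and 0.19 ± 0.06 in the value table. CEACAM5, the carcinoembryonic antigen, was 6.58, 6.89 and 6.85 in AGS and 7.88, 7.87 and 8.13 in MKN45 (1.19 ± 0.13, adjusted p = 0.000142), and at least 4.33 higher in MKN45 columns of the value table. AGR3, a relative of AGR2, was at least 0.24 higher in MKN45 in the signals and at least 3.93 in the value table. CEACAM5 and CEACAM6 are close paralogs, and their separation by probe is uncertain.

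Among endoderm transcription factors, 15 of 33 passed the filter and 3 were called, all toward AGS (value table, 4 toward MKN45 and 10 toward AGS of 18). The share called in the signals, 20%, is near the 15.6% of all genes. GATA5 was 7.19, 7.10 and 7.27 in AGS and 6.11, 5.94 and 6.08 in MKN45 (-1.14 ± 0.11, value table at least 1.28 lower in MKN45). SOX9, a progenitor factor of gut epithelium, differed by -0.67 ± 0.15 (value table, -0.81 ± 0.07) and GATA4 by -0.45 ± 0.14 (adjusted p = 0.0494, value table, -0.73 ± 0.06). The GATA4 call was lost without any 1 array other than AGS replicate 3 (adjusted p = 0.0619 to 0.161). FOXA1 (-0.02 ± 0.13) and FOXA2 (0.32 ± 0.16), pioneer factors of endoderm, did not pass in the signals and were -1.94 ± 0.06 and 1.45 ± 0.06 in the value table. Of 27 plasma proteins made by liver and fetal gut, 8 passed the filter (value table, 3 called each way of 8), with FGG toward MKN45 and 3 toward AGS, among them apolipoprotein APOA2 (-1.44 ± 0.12, value table at least 0.47 lower in MKN45) and the adhesive plasma protein vitronectin (VTN, -1.45 ± 0.11, value table, -2.04 ± 0.06).

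Of 35 cadherins and catenins, 12 passed the filter, with CDH1 called toward MKN45 and CDH17, protocadherin PCDH7 and CELSR2 toward AGS (value table, 2 and 9 of 14). PCDH7 was 10.16, 10.02 and 10.05 in AGS and 9.13, 8.90 and 9.40 in MKN45 (-0.94 ± 0.14, adjusted p = 0.00103, value table, -2.69 ± 0.06). CELSR2, a planar polarity cadherin, differed by -0.76 ± 0.14 and in the value table by -0.13 ± 0.06. The giant cadherin FAT1 was 12.25, 11.75 and 11.88 in AGS and 11.81, 11.69 and 11.77 in MKN45, which overlapped (-0.20 ± 0.14, adjusted p = 0.364, value table, -0.43 ± 0.07). CTNNB1, which encodes β-catenin, did not pass (0.09 ± 0.17, value table, -0.46 ± 0.06). Of 14 tested claudins and tight junction genes, CLDN6 and CLDN2 were called, both toward MKN45 (value table, 6 toward MKN45 and 4 toward AGS of 14). The share called in the signals, 14.3%, is near the 15.6% of all genes. CLDN2, a pore-forming claudin, was higher in MKN45 by 0.51 ± 0.13 (value table, 3.06 ± 0.06), and its signal call was lost without AGS replicate 1 or 2 or MKN45 replicate 1 or 3 (adjusted p = 0.056 to 0.0928). Of 8 tested desmosome genes only plakophilin PKP3 was called, a share (12.5%) also near that of all genes (value table, 2 toward MKN45 and 4 toward AGS of 8). PKP3 differed by 0.57 ± 0.14 (value table, -0.10 ± 0.06, not passed). Its signal call was lost without AGS replicate 1 or MKN45 replicate 1 or 3 (adjusted p = 0.0598 to 0.063).

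Of 10 tested integrin chains, 2 were called, both toward AGS, a share near the 15.6% of all genes, and the value table had 5 toward MKN45 and 3 toward AGS of 12. ITGB4, the integrin chain of hemidesmosomes, was 8.78, 9.18 and 9.01 in AGS and 6.95, 6.96 and 7.37 in MKN45 (-1.90 ± 0.15, adjusted p = 1.43e-05) but 1.04 ± 0.07 higher in MKN45 columns of the value table. The collagen-binding chain ITGA2 differed by -0.75 ± 0.16 (value table, 0.13 ± 0.06). The common chains ITGB1 (0.25 ± 0.16) and ITGAV (-0.07 ± 0.11) did not pass in the signals. ITGB1 had the other sign in the value table, without passing (-0.11 ± 0.06), and ITGAV was lower in MKN45 there (-0.35 ± 0.06). Of 12 tested laminins and basement membrane genes, 5 were called toward AGS and 0 toward MKN45, with a median difference of -0.41 over the list, against -0.00 over all genes (value table, 6 toward MKN45 and 8 toward AGS of 14). The chains LAMA5 (-0.64 ± 0.12), LAMB2 (-0.61 ± 0.14) and LAMB3 (-0.63 ± 0.13) were lower in MKN45 in the value table too (-0.41 ± 0.06, -0.41 ± 0.06 and -0.53 ± 0.06). Under the shift to a common median 1 of the 5 calls was left, and under an ordinary test with a variance from each gene alone 0. The random variance test, which the statistical methods name, moved 0 of the 64 list counts. These small differences thus depend on the scale and on how the test takes its variance.

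Of 31 tested immunoglobulin-type adhesion molecules, CEACAMs and tetraspanins, 7 were called toward MKN45 and 1, LGALS4, toward AGS (value table, 13 and 14 of 30). The tetraspanin TSPAN13 was 10.46, 10.41 and 10.43 in AGS and 11.70, 11.46 and 11.51 in MKN45 (1.12 ± 0.11, adjusted p = 7.23e-05, value table, 1.70 ± 0.07). CD47, the signal that restrains phagocytes, was 6.50, 6.42 and 6.49 in AGS and 7.41, 7.68 and 7.37 in MKN45 (1.01 ± 0.12, value table, 0.72 ± 0.06). The hyaluronan receptor CD44 was higher in MKN45 by 0.50 ± 0.11 (value table, 4.38 ± 0.06), and its signal call was lost without MKN45 replicate 3 (adjusted p = 0.0527). TSPAN15 differed by 0.55 ± 0.14 (value table, 0.25 ± 0.08), a call lost without AGS replicate 1 or 2 or MKN45 replicate 3 (adjusted p = 0.0604 to 0.0905). CEACAM6 differed by 0.40 ± 0.11 (value table, 3.26 ± 0.07), and its signal call was lost without any 1 array other than MKN45 replicate 2 (adjusted p = 0.0592 to 0.0969). ALCAM (0.11 ± 0.13, value table, -1.71 ± 0.06) and the mucin MUC1 (0.13 ± 0.13, value table, 1.43 ± 0.06) did not pass in the signals.

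Among 10 tested genes of mesenchymal state, 3 were called toward AGS and 1 toward MKN45 (value table, 7 and 4 of 12). The actin-binding protein TAGLN was 9.61, 9.85 and 9.87 in AGS and 8.83, 9.16 and 9.12 in MKN45 (-0.74 ± 0.13, value table, -2.64 ± 0.06), and smooth muscle actin ACTA2 differed by 0.72 ± 0.12 (value table, 0.08 ± 0.06, not passed). The calcium-binding protein S100A4 did not pass in the signals (-0.02 ± 0.12) and was 3.57 ± 0.06 in value-table columns.

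Receptor tyrosine kinases were called more often toward AGS (7 of 23 tested) than toward MKN45 (2), with a median difference of -0.17. Over all genes the shares were 8.94% toward AGS and 6.64% toward MKN45. The value table had 13 toward AGS and 8 toward MKN45 of 24, where all genes also leaned toward AGS (39.9% against 34.8%). FGFR4, a receptor of fibroblast growth factors, was 8.24, 8.04 and 7.98 in AGS and 7.07, 6.80 and 6.96 in MKN45 (-1.14 ± 0.12, adjusted p = 0.000123) but 0.58 ± 0.06 higher in MKN45 columns of the value table. MST1R, the relative of MET, also changed side (-0.69 ± 0.13 and 0.78 ± 0.06). ERBB3, a partner of ERBB2 with little kinase activity of its own, was 7.59, 7.98 and 7.79 in AGS and 6.74, 7.28 and 6.77 in MKN45 (-0.86 ± 0.16, adjusted p = 0.0046, value table, -0.18 ± 0.06). ERBB2 was 8.82, 8.92 and 8.76 in AGS and 8.37, 8.20 and 8.33 in MKN45 (-0.54 ± 0.11, adjusted p = 0.00729, value table, -0.74 ± 0.06). EGFR overlapped in the signals (0.21 ± 0.14, value table, 1.09 ± 0.06), and the scavenging receptor IGF2R did not pass in either table (0.02 ± 0.11 and 0.15 ± 0.08). ERBB2 and ERBB3 thus kept one direction in both tables. Under the shift to a common median the ERBB2 and MST1R calls were lost, and 2 of the 7 calls toward AGS were left.

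Of 30 tested cytokine, chemokine and death receptors, 6 were called toward MKN45 and 2 toward AGS (value table, 11 and 13 of 38). The death receptor family member TNFRSF19 was 8.52, 8.26 and 8.58 in AGS and 9.41, 9.21 and 9.24 in MKN45 (0.83 ± 0.12), the leukemia inhibitory factor receptor LIFR differed by 0.52 ± 0.12 and the TGF-β co-receptor TGFBR3 by 0.66 ± 0.13. All 3 were lower in MKN45 columns of the value table (-1.92 ± 0.06, -1.33 ± 0.08 and -0.44 ± 0.06).

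Wnt receptors and targets were called toward AGS for 6 of 21 tested genes and toward MKN45 for 1 (value table, 15 and 6 of 26). Beside AXIN2, the receptor FZD7 was 8.12, 7.96 and 8.14 in AGS and 7.43, 7.33 and 7.26 in MKN45 (-0.73 ± 0.11, adjusted p = 0.00123, value table, -1.64 ± 0.08). The stem cell receptor LGR5 differed by -0.65 ± 0.16 (value table, -0.93 ± 0.06), and its signal call was lost without AGS replicate 1 or MKN45 replicate 2 or 3 (adjusted p = 0.0562 to 0.0876). The pseudoreceptor BAMBI did not pass in the signals (-0.19 ± 0.11) and was -2.78 ± 0.06 in the value table. Under the shift to a common median only 1 of the 6 calls was left. Among 20 tested YAP and TEAD genes, 4 were called toward AGS and 3 toward MKN45 (value table, 10 and 6 of 23). The matrix protein CCN2, a direct YAP target, was 10.27, 10.15 and 10.17 in AGS and 8.60, 8.58 and 8.25 in MKN45 (-1.72 ± 0.12, adjusted p = 7.54e-06, value table, -2.06 ± 0.06). DLC1, a RhoGAP, was 8.49, 8.55 and 8.89 in AGS and 7.24, 7.52 and 7.38 in MKN45 (-1.26 ± 0.14, value table, -1.38 ± 0.06). Tissue factor (F3) went the other way in both tables (1.28 ± 0.14 and 0.97 ± 0.06).

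Interferon-induced genes held more calls toward MKN45 than any other of the 27 lists. Of 36 tested genes of antigen presentation and interferon response, 20 were called toward MKN45, 12 of them at least 2-fold, and 1 toward AGS, with a median difference of 0.61. These counts include genes such as IFI44, IFIT3 and BST2 that passed the filter only through arrays labelled MKN45, where they are high. Over all genes, probes detected on all 6 arrays gave 47 2-fold calls toward MKN45 in place of 95. The ordinary test with a variance from each gene alone left 13 of the calls toward MKN45, whereas the random variance test moved 0 of the 64 list counts. IFI27 was 7.34, 8.06 and 7.35 in AGS and 10.29, 10.65 and 10.66 in MKN45 (2.95 ± 0.19, adjusted p = 3.29e-06). IFIT1, a sensor of foreign RNA, was 8.53, 8.61 and 8.61 in AGS and 10.67, 10.26 and 10.44 in MKN45 (1.88 ± 0.12, adjusted p = 3.88e-06). IFI44, IFIT3 and the virus-tethering protein BST2 were not above background on any AGS array and were at least 2.38, 2.23 and 1.63 higher in MKN45. The ubiquitin-like modifier ISG15 differed by 0.80 ± 0.12 and the mitochondrial protein IFI6 by 0.81 ± 0.14, although the mean of its probes gave -0.11. IFI35 was the only member called toward AGS (-1.06 ± 0.15).

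The value table did not share this block, with 15 of 38 genes called toward MKN45 and 16 toward AGS. IFI27 was 8.87, 8.92 and 8.93 in AGS columns and 7.10, 7.06 and 7.21 in MKN45 columns (-1.79 ± 0.06). IFIT1 (-1.50 ± 0.06), ISG15 (-2.02 ± 0.07), IFI6 (-1.92 ± 0.07), BST2 (-0.61 ± 0.06) and IFI44 (-0.22 ± 0.07) were lower in MKN45 columns, and IFI35 was higher (0.56 ± 0.06). IFIT3 did not pass (-0.07 ± 0.06), but a different probe stood for it there than in the signals. In the VP arrays of the signals the differences were smaller for IFIT1 (0.52), IFIT3 (0.98) and IFI44 (1.70), and BST2 had the opposite sign (-0.66).

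**Figure D5:**
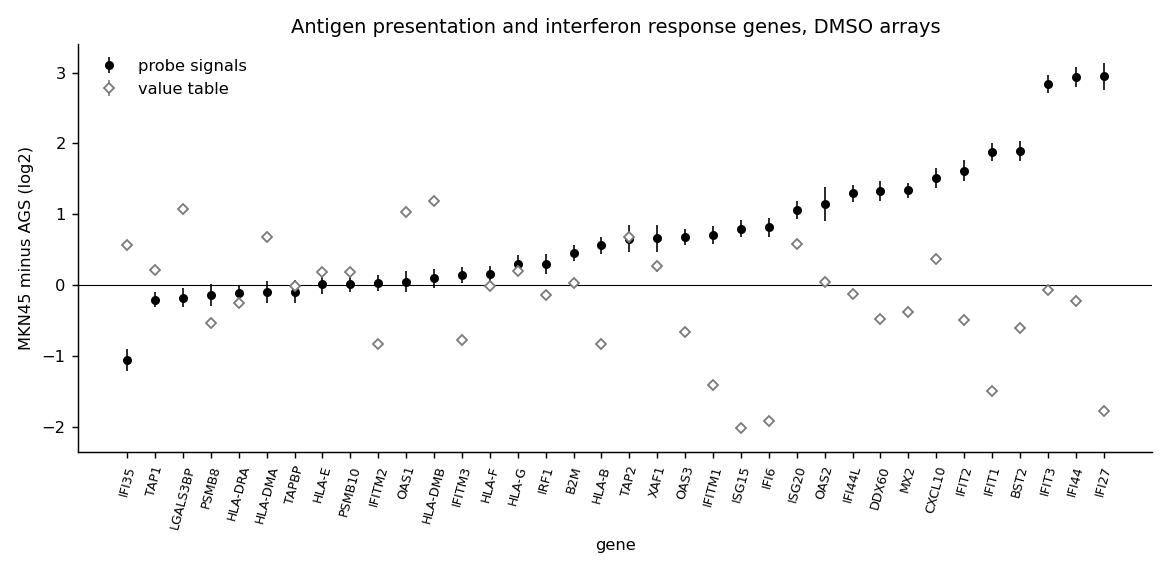
Difference between labels (MKN45 minus AGS, log2) for the 36 tested antigen presentation and interferon response genes, in the probe signals (black) and the value table (grey, where tested), with SE bars. The signals reach 2.95 at IFI27, whereas the value table gives -1.79 there.

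Interferon genes are switched on through the interferon-stimulated response element, bound by the factor ISGF3. Promoters of 5 members that were higher in MKN45 in the signals are shown because these genes moved together, from 250 bases before to 50 after the start (RefSeq, GRCh38.p14), with matches to GAAANNGAAA on either strand in capitals.
IFIT1 (chr10:89392373-89392672, + strand): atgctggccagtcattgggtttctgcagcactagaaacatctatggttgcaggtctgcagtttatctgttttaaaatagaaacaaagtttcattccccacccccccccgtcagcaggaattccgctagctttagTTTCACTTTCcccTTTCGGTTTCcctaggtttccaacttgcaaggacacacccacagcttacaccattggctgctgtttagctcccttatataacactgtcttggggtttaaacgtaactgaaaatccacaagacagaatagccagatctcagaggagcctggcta
IFIT3 (chr10:89327747-89328046, + strand): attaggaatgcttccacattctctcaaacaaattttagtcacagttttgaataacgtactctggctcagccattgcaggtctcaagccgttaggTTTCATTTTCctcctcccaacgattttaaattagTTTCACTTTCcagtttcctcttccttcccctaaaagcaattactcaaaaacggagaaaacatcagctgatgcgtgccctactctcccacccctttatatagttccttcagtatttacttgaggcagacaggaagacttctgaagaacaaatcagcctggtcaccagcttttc
IFI44 (chr1:78649539-78649838, + strand): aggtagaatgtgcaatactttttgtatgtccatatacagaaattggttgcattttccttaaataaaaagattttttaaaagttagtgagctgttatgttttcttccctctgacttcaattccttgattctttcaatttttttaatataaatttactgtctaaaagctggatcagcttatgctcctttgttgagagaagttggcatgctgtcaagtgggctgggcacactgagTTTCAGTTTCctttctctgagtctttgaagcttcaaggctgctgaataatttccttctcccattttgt
IFI27 (chr14:94110486-94110785, + strand): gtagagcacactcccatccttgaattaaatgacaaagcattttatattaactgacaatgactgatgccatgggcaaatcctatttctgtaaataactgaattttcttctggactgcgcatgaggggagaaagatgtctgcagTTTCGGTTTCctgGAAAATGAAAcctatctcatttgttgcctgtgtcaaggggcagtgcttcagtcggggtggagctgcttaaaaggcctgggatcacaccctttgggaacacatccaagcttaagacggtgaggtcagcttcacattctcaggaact
BST2 (chr19:17405581-17405880, - strand): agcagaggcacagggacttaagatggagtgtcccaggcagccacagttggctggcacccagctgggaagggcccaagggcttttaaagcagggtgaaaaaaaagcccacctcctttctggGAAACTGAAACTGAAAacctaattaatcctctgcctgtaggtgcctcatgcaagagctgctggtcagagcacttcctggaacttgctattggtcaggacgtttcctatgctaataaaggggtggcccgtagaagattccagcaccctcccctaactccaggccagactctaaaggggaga
IFIT1, IFIT3 and IFI27 held 2 matches each, BST2 held 2 that overlap and IFI44 held 1. The motif was in 24 of 38 genes of the list with a promoter in the table (63.2%) and in 4.38% of all 27305 genes with one, or 3.57% of all 35116 promoter windows. The list was made of known interferon and antigen presentation genes, not of genes called here, so this share says nothing about the labels. A match describes the letters and is no measure of binding, and the 5 genes shown were higher in MKN45 in one table only.

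Enzymes against oxidants and aldehydes lay toward AGS in the signals. Of 29 tested aldo-keto reductases, aldehyde dehydrogenases and NRF2 enzymes, 13 were called toward AGS and 1, ALDH1A1, toward MKN45, with a median difference of -0.28. Under the shift to a common median 4 of the calls toward AGS were left. HMOX1 led, followed by AKR1C2 and AKR1B10. The aldehyde dehydrogenase of cornea and stomach, ALDH3A1, was 11.24, 11.11 and 11.09 in AGS and 9.94, 9.95 and 10.10 in MKN45 (-1.15 ± 0.11, adjusted p = 6.4e-05). GCLM, a subunit of the enzyme that limits glutathione synthesis, was 10.35, 10.43 and 10.43 in AGS and 9.77, 9.66 and 9.63 in MKN45 (-0.72 ± 0.11, value table, -0.61 ± 0.06). The retinal-oxidising enzyme ALDH1A1 was 5.73, 4.81 and 5.16 in AGS, with 1 of 3 arrays above background, and 6.45, 5.94 and 6.33 in MKN45 (1.01 ± 0.21, value table, 3.40 ± 0.07).

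In the value table the list went the other way, with 21 of 34 genes called toward MKN45 and 9 toward AGS, and a median of 0.40. ALDH3A1 was 8.63, 8.51 and 8.56 in AGS columns and 11.80, 11.79 and 11.68 in MKN45 columns (3.19 ± 0.06). HMOX1 and GCLM were the named members that kept their direction toward AGS. Promoters of GCLM and of GPX2, a glutathione enzyme outside the list, are given because GPX2 changed side between the tables while GCLM did not, with matches to the antioxidant response element, bound by NRF2 (TGACNNNGC, either strand), in capitals.
GPX2 (chr14:64942696-64942995, - strand): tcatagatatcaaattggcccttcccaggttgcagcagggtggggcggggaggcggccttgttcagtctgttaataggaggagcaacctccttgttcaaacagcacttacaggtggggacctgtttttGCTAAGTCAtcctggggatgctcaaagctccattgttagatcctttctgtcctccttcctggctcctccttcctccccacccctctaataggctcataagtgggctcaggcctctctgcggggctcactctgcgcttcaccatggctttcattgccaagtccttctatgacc
GCLM (chr1:93909381-93909680, - strand): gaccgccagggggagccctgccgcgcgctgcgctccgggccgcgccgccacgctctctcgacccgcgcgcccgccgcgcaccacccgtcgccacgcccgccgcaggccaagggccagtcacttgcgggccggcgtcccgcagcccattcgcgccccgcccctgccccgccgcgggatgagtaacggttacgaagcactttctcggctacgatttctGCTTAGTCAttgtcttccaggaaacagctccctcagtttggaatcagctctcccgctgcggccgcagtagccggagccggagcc
Each held 1 match. The motif was in 6 of 36 genes of the list with a promoter (16.7%) and in 16.1% of all 27305 genes with a promoter, a like share, and in 13.3% of all windows.

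Of 35 tested genes of cytochrome P450, conjugation and drug efflux, 10 were called toward AGS and 4 toward MKN45, led by UGT1A6 (value table, 21 and 15 of 40). CYP1A1, which oxidises aromatic hydrocarbons, was 8.21, 7.96 and 8.14 in AGS and 7.21, 6.70 and 6.76 in MKN45 (-1.22 ± 0.15), and no probe of it passed the filter of the value table. CYP3A5, a steroid and drug hydroxylase, was 7.91, 7.59 and 7.87 in AGS and 6.59, 6.55 and 6.57 in MKN45 (-1.22 ± 0.12, adjusted p = 6.64e-05, value table, -0.70 ± 0.07).

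Of 30 tested genes of glucose uptake, glycolysis and lactate, 6 were called toward AGS and 3 toward MKN45, against 22 toward MKN45 and 7 toward AGS of 35 in the value table. The first enzyme of glycolysis, HK1, was 8.85, 9.05 and 9.20 in AGS and 8.50, 8.43 and 8.56 in MKN45 (-0.54 ± 0.12) and reversed in the value table (1.33 ± 0.06). Its signal call was lost without AGS replicate 3 (adjusted p = 0.0576). Beside this path, the galactose enzyme GALM was 8.61, 8.95 and 8.72 in AGS and 7.50, 7.61 and 7.55 in MKN45 (-1.20 ± 0.12, value table, -0.41 ± 0.06). PGM1, which links glycogen and glycolysis, differed by -0.90 ± 0.13 (value table, -0.64 ± 0.06).

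Lipid genes were called both ways, 9 toward MKN45 and 7 toward AGS of 44 tested (value table, 26 and 14 of 49). Genes of prostaglandin synthesis and breakdown are named among those called toward MKN45. PTGS2, the inducible cyclooxygenase, was 8.13, 7.88 and 8.14 in AGS and 9.70, 9.65 and 9.56 in MKN45 (1.59 ± 0.12, adjusted p = 8.66e-06, value table, 1.87 ± 0.06). The phospholipases that release fatty acids, PLA2G2A (1.51 ± 0.14) and PLA2G4A (1.29 ± 0.18), and HPGD, which inactivates prostaglandins (0.93 ± 0.11), were also higher in MKN45 in the signals. In the value table these gave -0.30 ± 0.06, -0.13 ± 0.07 (not passed) and -1.07 ± 0.06. The fatty acid carrier FABP5 was 10.73, 10.86 and 10.61 in AGS and 8.80, 9.04 and 9.08 in MKN45 (-1.76 ± 0.12, adjusted p = 5.73e-06, value table, -1.38 ± 0.07). The adipogenic receptor PPARG differed by -0.56 ± 0.12 and reversed in the value table (2.02 ± 0.07).

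Amino acid and metal genes completed the metabolic lists. Of 49 tested amino acid, one-carbon and urea cycle genes, 7 were called each way (value table, 38 toward MKN45 and 16 toward AGS of 58). The neutral amino acid transporter SLC7A8 was 7.27, 7.34 and 7.58 in AGS and 6.31, 6.21 and 6.07 in MKN45 (-1.20 ± 0.12, value table, -0.82 ± 0.06), and the creatine-forming enzyme GATM differed by -0.86 ± 0.14 (value table, -1.75 ± 0.07). The mitochondrial creatine kinase CKMT1A, whose twin CKMT1B is nearly identical, differed by -0.96 ± 0.11 (value table, 0.58 ± 0.07), and CBS of the transsulfuration path by -0.73 ± 0.11 (value table at least 2.18 higher in MKN45). MTAP, which salvages methionine, was 8.60, 8.53 and 8.33 in AGS and 9.24, 8.97 and 9.04 in MKN45 (0.60 ± 0.12, adjusted p = 0.00761), but -1.14 ± 0.06 in the value table. The metallothionein MT2A, which binds zinc, was 8.85, 9.04 and 8.67 in AGS and 9.86, 10.19 and 10.09 in MKN45 (1.20 ± 0.13) and also reversed in the value table (-1.55 ± 0.07).

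Genes with one direction in both tables and at least a 2-fold difference in each were few among those named. They were UGT1A6, CA2, AGR2, FGG, CEACAM5, TSPAN13, PTGS2 and ALDH1A1 toward MKN45, and PAGE4, MMP1, HMOX1, UNC13D, CTSE, SMIM24, GATA5, VTN, AXIN2, CCN2, DLC1 and FABP5 toward AGS. ALDH1A1 is the least sure of these. Most of its AGS signal arrays were at background, and its difference of 1.01 became -0.69 in the VP arrays.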

How the data were processed

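RNA of 12 samples was hybridised to Illumina HumanHT-12 V4 arrays, and the 6 DMSO arrays were analysed here. The authors deposited an unnormalized table of probe intensity with a detection p-value per probe and array, exported from GenomeStudio, whose version is not given in the sources used here. The authors also deposited a table of log2 values, quantile normalized per the methods, which do not say over which arrays. Its columns followed one distribution within a line and another between lines. In each AGS column 17040 probes lay above the background limit, and in each MKN45 column 18379. In that table, values past row 21197 belonged to the probe named on the next row, which was found by rank correlation with the signals (0.927 with the next row, 0.296 with the named one), and names were moved back. It held 1 row of linear values, and 0 columns belonged to no sample.

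Intensities were background-corrected, offset by 16 and quantile normalized over the 6 arrays (neqc, limma 3.58.1, R 4.3.3). Kept probes were detected (p-value below 0.01) on each of the 3 arrays of at least 1 label, and the probe with the highest mean stood for its gene. Of 47323 probes, 30113 had 1 gene symbol, 8 several and 17202 none, and 30074 matched RefSeq by identifier. Lines were compared with lmFit and eBayes, with Benjamini-Hochberg adjustment over all genes and calls at an adjusted p under 0.05. Columns of the value table were quantile normalized together and filtered at 3 spreads above the background mode. Where all arrays of a label were at background, differences are bounds against the lowest level above background. The script was tested on simulated data.

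Named genes were the 12 largest non-overlapping calls each way, up to 5 calls a direction and up to 3 abundant genes not passed in each list, and genes set by name, of which a part is printed. The 12 were ranked by the bound where all arrays of a label were at background. Members and lists were chosen with earlier results of these data known. Alternatives covered normalization, background, filter, probe choice, test, table, replicate block and leaving out each array. Value-table settings beyond the table itself were chosen after seeing the data.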

Additional observations from a re-analysis of the deposited data

Results flagged for a closer look

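Some genes lay one way between the labels in all DMSO arrays and the other way in all VP arrays of the signals, with no overlap in either. Under DMSO 33.6% of all genes did not overlap, and not every gene given here passed the test. The change between DMSO and VP arrays was not tested for any of them, and drug and array set cannot be told apart. MET gave 0.22 in DMSO arrays and -0.20 in VP arrays (MKN45 minus AGS, log2), and passed in neither (limma, adjusted p = 0.238 and 0.115). The endoderm factor FOXA3 gave 0.15, which did not pass (limma, adjusted p = 0.399), and -0.28 (0.0428). For adhesion genes, PKP3 gave 0.57 and -0.32 and TSPAN15 0.55 and -0.55. For metabolic genes, HK1 gave -0.54 and 0.28, and ALDH1A1 gave 1.01 and -0.69. The endothelial lipase LIPG gave -0.61 and 0.16, of which the VP difference did not pass (limma, adjusted p = 0.183). The DMSO call of LIPG was lost without AGS replicate 1 or 3 or MKN45 replicate 2 (limma, adjusted p = 0.0513 to 0.0791). The cationic amino acid transporter SLC7A2 gave 0.68 and -0.68, and thymidine phosphorylase (TYMP) 0.58 and -0.30. BST2 gave 1.90 and -0.66, with AGS arrays at background under DMSO.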

How the results depend on the processing

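Counts of calls (603 toward MKN45, 811 toward AGS, of these 95 and 108 at least 2-fold, 159 of the 2-fold genes alike in VP arrays) moved with several choices, and the causes were not tested. The shift to a common median gave 220 toward AGS, 60 of them 2-fold. Without background correction 28 and 28 genes were 2-fold, 49 alike in VP arrays. With probes detected on all 6 arrays, 47 were 2-fold toward MKN45 and 105 alike. An ordinary t-test gave 213 and 276, whereas the random variance t-test that the statistical methods name gave 611 and 818. An unadjusted p under 0.001 gave 310 and 449. The value table gave 3652 and 4188, 519 and 378 at least 2-fold, with 897 alike, and 337 in place of 519 over probes detected in the signals. Leaving out 1 array gave 416 to 575 and 555 to 719 calls, 88 to 100 and 103 to 123 of them 2-fold. Deviations of same-numbered signal arrays correlated by 0.26, 0.15 and -0.03, and those of differently numbered arrays by -0.22 to 0.06. In the value table same-numbered columns gave -0.07, 0.07 and 0.06. Whether replicate numbers pair the arrays is thus not settled, and the main fit held no pairing. A replicate block gave 649 and 840 calls, 95 and 108 of them 2-fold, and of the named genes only GATA4 lost its call (adjusted p = 0.0745), as it did after normalization over all 12 arrays (0.0504). A slide block was not run because the headers name no slide.

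The value table reversed the sign of these named genes, each called in at least 1 of the tables, given here as its measured differences. Toward MKN45 there were EPCAM 0.53, KRT8 1.06, UGT1A1 2.40, AKR1C2 0.25, ITGB4 1.04, AKR1B10 1.94, GPX2 2.88, SLC16A5 0.21, LGALS4 2.93, VIL1 0.0216, TM4SF5 0.19, ITGA2 0.13, S100A4 3.57, MST1R 0.78, FGFR4 0.58, ALDH3A1 3.19, HK1 1.33, PPARG 2.02, CKMT1A 0.58, CBS 2.39 and IFI35 0.56. Toward AGS there were VIM -0.19, IFI27 -1.79, CLDN6 -0.0622, IFI44 -0.22, PLAAT4 -0.0628, IFIT3 -0.0702, SOX2 -1.24, FOXA3 -0.88, CTNNB1 -0.46, PKP3 -0.10, ALCAM -1.71, LIFR -1.33, TNFRSF19 -1.92, TGFBR3 -0.44, YAP1 -2.13, PLA2G2A -0.30, PLA2G4A -0.13, HPGD -1.07, MTAP -1.14, MT2A -1.55, TYMP -0.63, IFIT1 -1.50, BST2 -0.61, ISG15 -2.02 and IFI6 -1.92. The mean of all probes reversed IFI6 (-0.11). Arrays at background limit the low genes to bounds, and IFIT3 was read by a different probe in each table.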
